A study of Mus musculus with 8 samples.

Results

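The solute carriers (Slc genes) are the large superfamily of membrane proteins that move amino acids, nucleotides, metal ions, fatty acids, vitamins and inorganic ions across the plasma membrane and the membranes of organelles. Their transcripts were compared in epididymal fat, which lies next to the epididymis in males, from 4 mouse lines. The members were the probe sets on Affymetrix chip A or chip B whose annotated symbol was Slc followed by a number, without the Slc2a sugar transporters (8 probe sets) and Slc11a2 (2 probe sets). This rule gave 131 probe sets of 105 genes among 13069 probe sets. Of the 131, 102 were on chip A and 29 on chip B; 27 belonged to amino acid carriers, 21 to mitochondrial (Slc25a) carriers and 81 to other carriers. The other 2, Slc9a3r1 and Slc4a1ap, carry an Slc symbol but name binding partners and not carriers.

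DU6 was bred for high body weight, DU6i was inbred from DU6, DUKs is an unselected control line and DBA an inbred strain. This account is general knowledge; the labels give the line names, with selection and adiposity among the keywords, and name no treatment. Each line was 1 pool of RNA from 20 males aged 42 days, hybridised to 1 chip A and 1 chip B array (8 arrays in all). A pool has no measured spread between animals, so the pairs DU6 with DUKs, DU6i with DBA, DU6 with DU6i and DUKs with DBA were compared by size alone, and a difference between lines holds their whole genetic background. Values are the deposited signals, a linear intensity with no unit. A signal at or under a floor, 1022.8 on chip A and 2258.25 on chip B, was not told apart from background; the floor is the 95th percentile of the sizes of the negative signals of a chip. A ratio against such a signal is a bound, written "at least". A ratio of 2-fold or more is called higher or lower below. In genes with a pair of probe sets above the floor, the SD of a single log2 ratio was 0.44 for DU6 against DUKs, 0.34 for DU6i against DBA, 0.46 for DU6 against DU6i and 0.41 for DUKs against DBA, so a call lies more than 2 such SDs from 0. That SD covers differences between probe sets and not between animals.

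Adipocytes use solute carriers to take up fatty acids and amino acids, to exchange lactate and ions, and to export mitochondrial citrate, from which fatty acids are made in the cytosol. Amino acid carriers fall into sodium-coupled uptake systems, exchangers and heavy chains that bring exchangers to the membrane. The mitochondrial carriers of the Slc25a family sit mostly in the inner mitochondrial membrane and pass adenine nucleotides, citrate, dicarboxylates and acylcarnitines.

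The 3 genes on which the description turns are Slc38a5, a sodium-coupled carrier of glutamine and other neutral amino acids, Slc1a1, a high-affinity glutamate and aspartate carrier, and Slc6a13, a carrier of GABA and taurine. The 250 bases upstream of an annotated start of each are printed because their transcripts gave the largest ratios between lines among the members measured. The sequences are from RefSeq (mouse build GRCm38.p6, plus strand), 5′ to 3′, in lower case with each GC box (GGGCGG on either strand) in capitals. For Slc6a13, which has 3 annotated starts, the most upstream is shown.
Slc38a5, chrX:8271131-8271380: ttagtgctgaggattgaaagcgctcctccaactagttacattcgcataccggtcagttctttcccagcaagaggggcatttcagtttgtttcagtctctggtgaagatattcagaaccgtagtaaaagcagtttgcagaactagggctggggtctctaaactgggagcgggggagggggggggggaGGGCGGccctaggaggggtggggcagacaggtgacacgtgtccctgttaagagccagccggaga
Slc1a1, chr19:28834885-28835134: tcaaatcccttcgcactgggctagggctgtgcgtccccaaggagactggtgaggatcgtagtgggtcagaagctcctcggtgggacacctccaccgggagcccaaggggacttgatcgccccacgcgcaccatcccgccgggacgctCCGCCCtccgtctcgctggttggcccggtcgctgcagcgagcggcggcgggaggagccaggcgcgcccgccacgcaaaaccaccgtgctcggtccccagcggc
Slc6a13, chr6:121300038-121300287: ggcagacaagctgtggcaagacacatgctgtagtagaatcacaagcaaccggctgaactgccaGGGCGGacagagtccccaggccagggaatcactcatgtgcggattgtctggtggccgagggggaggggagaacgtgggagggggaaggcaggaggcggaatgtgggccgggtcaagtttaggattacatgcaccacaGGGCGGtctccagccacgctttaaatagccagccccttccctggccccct
The GC box lies 64 bases before the start in Slc38a5 and 103 bases before it, on the other strand, in Slc1a1. The Slc6a13 window shown holds 2 GC boxes, 187 and 50 bases before the start. The windows of its other annotated starts held no GC box, and 1 of them held a CCAAT. Over the 122 such windows of 90 member genes, 53.3% held GGGCGG on either strand, against 32.7% of 32851 windows in the whole table. TATAAA was found in 4.92% of member windows against 12.4% of all, and CCAAT in 26.2% against 33.8%. TGATGNAAT, an amino acid response element bound in amino acid shortage, was in 2 member windows (1.64%, against 0.816% of all). No motif match overlapped another in the windows shown. These are matches of letters and were not tested for binding.

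Of the 131 probe sets, 81 (64 genes) were above the floor in at least 1 line, 45 in all 4 lines and 13 in 1 line alone; 50 were at or under the floor in every line. The share above the floor in a line was 61.8%, against 46.5% of all probe sets. It was 15 of 21 for mitochondrial carriers, 14 of 27 for amino acid carriers and 51 of 81 for other carriers. Carriers at or under the floor in every line included Slc7a1, Slc7a2 and Slc7a3, which carry cationic amino acids, the glutamine carrier Slc38a2, the bile acid carriers Slc10a1 and Slc10a2, and the kidney chloride cotransporters Slc12a1 and Slc12a3. Over all probe sets, 6075 were above the floor in a line, 3974 of them in all 4 lines and 808 in 1 line alone. Of the 13 member probe sets above the floor in 1 line alone, 7 were above it in DBA, 3 in DUKs, 2 in DU6i and 1 in DU6. The split by line was not counted over all probe sets, so these counts have no background. The DU6 case was the peptide carrier Slc15a2, at 1200.5 against 32.9, 641.3 and 467.5 in DU6i, DUKs and DBA.

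In DU6 against DUKs, 72 members were measured, 5 were higher at 2-fold or more and 3 lower. The background over all 5604 probe sets measured in that pair was 3.91% higher and 6.3% lower, against 6.94% and 4.17% of the members. In DU6i against DBA, 6 of 76 members were higher and 11 lower (7.89% and 14.5%), where the background over 5556 probe sets was 4.79% higher and 6.68% lower. The members lower in DU6i were the larger share relative to their background. Of these, Slc1a1, Slc39a4, Slc44a4, Slc9a3r1 and Slc41a1 were under the floor in DU6i, so they entered through DBA and could only be lower. Slc6a12, Slc16a1, Slc4a3 and Slc4a1 were under it in DBA and could only be higher. With both arrays above the floor the 11 lower became 6 and the 6 higher became 2. Only Slc6a13 and Slc1a1 were past 2-fold in both pairs: Slc6a13 was higher in DU6 and DU6i than in DUKs and DBA respectively, and Slc1a1 ran in opposite directions.

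**Figure D1:**
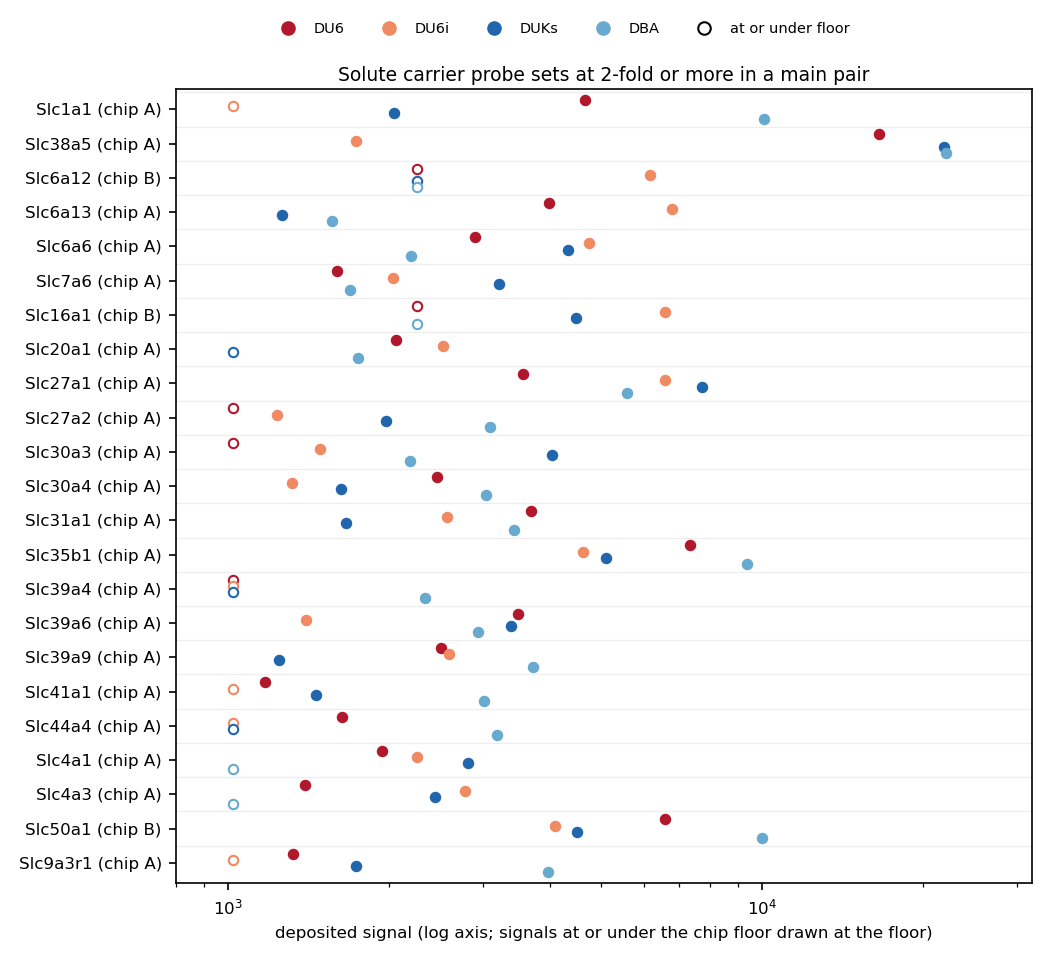
Deposited signal (log axis) of the 23 solute carrier probe sets at 2-fold or more in DU6 against DUKs or in DU6i against DBA. Each point is 1 pool, coloured by line, and open points are at or under the chip floor. Slc38a5 in DU6i (1736.6) stands far under the other 3 lines, and Slc1a1 spans the range from the floor in DU6i to 10077.8 in DBA.

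Among the amino acid carriers, Slc38a5 had a signal of 16576.9 in DU6, 1736.6 in DU6i, 21855 in DUKs and 22076.3 in DBA. DU6i alone was low, 12.7-fold under DBA, 12.6-fold under DUKs and 9.55-fold under DU6, while DUKs and DBA were almost equal and DU6 lay a little under them. Of the 81 measured members, Slc38a5 and the zinc importer Slc39a6 were the 2 that lay 2-fold or more under each of the other 3 lines in DU6i, against 1% of all 6075 measured probe sets. Slc39a6 had signals of 3494, 1399.9, 3378.8 and 2938.4 in DU6, DU6i, DUKs and DBA on its brighter probe set, which made DU6i 2.50-fold lower than DU6 and 2.10-fold lower than DBA. Its ratio to DBA was 1.83-fold after quantile normalisation. The second Slc39a6 probe set was above the floor in DUKs alone (1326).

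Gpx5 and Adam7, transcripts of the epididymis, the organ beside this fat pad, were also low in DU6i. Gpx5, an epididymal secreted peroxidase, had signals of 49126.1 in DU6, -2544 in DU6i, 52043.5 in DUKs and 20752.7 in DBA. Adam7, an epididymal membrane protein, had 19574.3, 5914.4, 23895.5 and 21664.8. Defb1, a further gene of the epididymal list, had 815.5, 281.8, 964 and 2118, above the floor in DBA alone. Over the 3 epididymal genes on the chips, of 10 listed, the summed signal was 69515.9 in DU6, 6196.2 in DU6i, 76903 in DUKs and 44535.5 in DBA. The part of epididymal RNA in the Slc38a5 and Slc39a6 differences was not tested. In pools of whole tissue, fewer cells of a type and less RNA per cell cannot be told apart.

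Slc1a1 had signals of 4649.5 in DU6, 511.2 in DU6i, 2044.9 in DUKs and 10077.8 in DBA on chip A. All 4 lines stood apart, with DBA highest and DU6i under the floor. DU6 was 2.27-fold higher than DUKs, and DBA exceeded DU6i at least 9.85-fold. Within the sides, DU6 was at least 4.55-fold higher than DU6i and DUKs 4.93-fold lower than DBA. A second Slc1a1 probe set, on chip B, was above its floor in DBA alone (2865), and so gives no independent direction or size for Slc1a1.

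Slc6a13 had signals of 3986.7 in DU6, 6785.2 in DU6i, 1259.9 in DUKs and 1567.5 in DBA. Both DU6 lines lay above both control lines: DU6 was 3.16-fold higher than DUKs, and DU6i 4.33-fold higher than DBA. With the partners exchanged, DU6 was 2.54-fold higher than DBA and DU6i 5.39-fold higher than DUKs. DU6 and DU6i differed by 1.70-fold and the control lines by 1.24-fold.

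Of the close relatives of Slc6a13 in the Slc6 family, Slc6a6 and Slc6a9 gave another order of lines. That of Slc6a12 could not be told beyond DU6i being highest, as it was for Slc6a13. Slc6a12, the betaine and GABA carrier, was above the floor in DU6i alone, at 6154, against 1913.5 in DU6, 2033.4 in DUKs and 1972.3 in DBA, which is at least 2.73-fold higher. It was the 1 member 2-fold or more above each of the other 3 lines in DU6i (0.609% of all measured probe sets), having been measured through DU6i alone, and its second probe set was under the floor in every line. Slc6a6, the taurine carrier, was lowest in DBA on all 3 of its probe sets. The first had 2900 in DU6, 4733.5 in DU6i, 4333.3 in DUKs and 2203.7 in DBA. The 3 ratios of DU6i over DBA were 2.15, 1.91 and 1.76, whereas between DU6 and DUKs the 3 probe sets gave log2 ratios from -0.58 to 0.44. The glycine carrier Slc6a9 was highest in DBA, with 6742.3, 7729.6, 7332.6 and 9416.6 in DU6, DU6i, DUKs and DBA. Over the 6 measured probe sets for GABA, taurine, betaine and glycine carriers (4 genes, with 3 probe sets for Slc6a6), 5 were higher in DU6i than in DBA. Of these, 3 were higher at 2-fold or more (background 4.79%), Slc6a12 having been measured through DU6i alone, and the median log2 ratio of the 6 was 1.02. Between DU6 and DUKs the median of 5 was 0.00, and it was -0.12 after quantile normalisation.

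Slc1a5, the exchanger that takes up glutamine and other neutral amino acids, had signals of 19542.7 in DU6, 44546.4 in DU6i, 30909.1 in DUKs and 24273.3 in DBA. DU6i was highest and DU6 lowest, 2.28-fold apart. After quantile normalisation that ratio was 1.15-fold: Slc1a5 was among the brightest probe sets, and the 99th percentile of chip A itself was 18810 in DU6, 34793 in DU6i, 27552 in DUKs and 23450 in DBA. Slc3a2, the heavy chain that carries several amino acid exchangers to the plasma membrane, had signals from 12186.6 in DU6i to 21214.9 in DU6 on one probe set and from 20604 in DUKs to 31902.9 in DBA on the other. Both are of a type that can be shared with related sequences, and they disagreed on the highest line. Slc7a6, a partner of Slc3a2 that exchanges cationic for neutral amino acids, had 1599.4 in DU6, 2035.4 in DU6i, 3210.1 in DUKs and 1694.5 in DBA, and DU6 was 2.01-fold lower than DUKs. Slc38a10, another sodium-coupled amino acid carrier, differed by 1.34-fold in DU6 against DUKs and 1.21-fold in DU6i against DBA, with both DU6 lines higher.

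Genes of amino acid metabolism were set beside these carriers. Of 12 genes of the amino acid starvation response on the chips, 9 were measured in each main pair. In both pairs 5 were higher and 4 lower, with medians of 0.01 in DU6 against DUKs and 0.06 in DU6i against DBA. In each pair 1 was at 2-fold or more: Cebpb higher in DU6 (background 3.91%) and Mthfd2 lower in DU6i (background 6.68%). Mthfd2 was 1.85-fold lower after quantile normalisation. Of 14 enzymes of amino acid metabolism on the chips, 11 were measured. In DU6 against DUKs 8 were higher and 3 lower, with none at 2-fold, and in DU6i against DBA 4 were higher and 7 lower, with 1, Oat, lower at 2-fold or more (8507.7 in DU6i and 18105.2 in DBA).

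No mitochondrial carrier reached 2-fold in either main pair. The background was 3.91% higher and 6.3% lower in DU6 against DUKs, and 4.79% and 6.68% in DU6i against DBA. Among the carrier classes this one had the highest share of members on the upper side. Its 15 probe sets above the floor in a line were of 10 genes, and those of Slc25a4 and Slc25a5 can be shared within a family. In DU6 against DUKs 10 of 14 were higher (71.4%, against 54.1% of all probe sets), with a median log2 ratio of 0.27, against 0.05. In DU6i against DBA 11 of 15 were higher (73.3%, against 47.5% of all probe sets), with a median of 0.33, against -0.03. After quantile normalisation these medians were 0.23 and 0.21. Within the sides the medians were -0.11 in DU6 against DU6i and -0.08 in DUKs against DBA. Of the 14 above the floor in all 4 lines, 8 were highest in DU6i and 6 lowest in DUKs. DU6i was highest in 25.3% of 3974 such probe sets, and DUKs lowest in 25.3% of the 6075 above the floor in a line. Amino acid carriers had medians of 0.02 and 0.27 in the main pairs, and other carriers 0.09 and -0.16. The quartiles of the amino acid carriers in DU6i against DBA ran from -0.55 to 0.92, against 0.01 to 0.55 for the mitochondrial carriers.

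**Figure D2:**
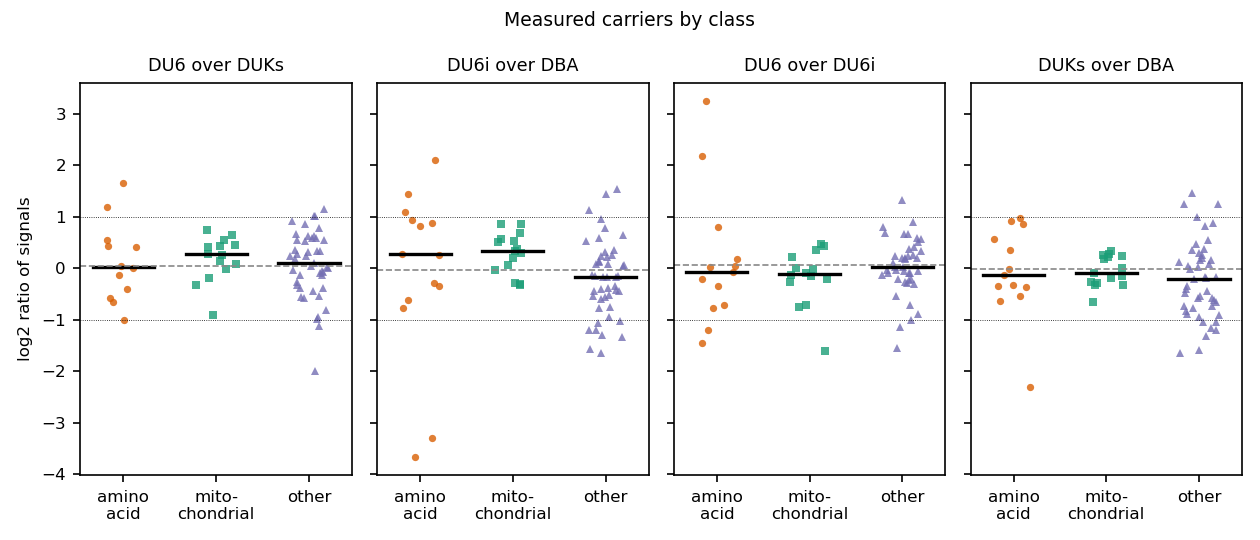
Log2 ratio of signals for each measured carrier in the 4 pairs of lines, by class; black bars are class medians, the dashed line is the median of all probe sets and dotted lines mark 2-fold. The mitochondrial carriers lie closest together, with medians of 0.27 and 0.33 in the main pairs, and the amino acid carriers are the most spread in DU6i over DBA.

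Slc25a10, the dicarboxylate carrier, had signals of 12708 in DU6, 13982.5 in DU6i, 9340.7 in DUKs and 7692.6 in DBA, and both DU6 lines lay above both control lines by 1.36-fold and 1.82-fold in the main pairs. Slc25a17, a family member of the peroxisome, had 11210.3, 11097.7, 8208.8 and 9074.7, with the same split of lines. Slc25a51, which carries NAD into mitochondria, was higher in both DU6 lines on both of its probe sets, by 1.56-fold and 1.11-fold over DUKs in DU6 and by 1.15-fold and 1.42-fold over DBA in DU6i. Slc25a20, the carnitine and acylcarnitine carrier needed for fatty acid oxidation, was higher in DU6 than in DUKs on both probe sets (1.68-fold and 1.20-fold). Its DU6i to DBA ratios were a log2 of -0.04 and 0.68, which are further apart than 1 SD.

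Slc25a4 and Slc25a5, the ADP/ATP carriers, are measured by probe sets that can be shared within a family, so that their levels may mix. The 2 Slc25a4 probe sets were higher in DU6 than in DUKs by 1.47-fold and 1.22-fold. The 3 Slc25a5 probe sets were higher in DU6i than in DBA by 1.45-fold, 1.26-fold and 1.48-fold. The Slc25a5 log2 ratios of DU6 to DUKs were 0.08, 0.42 and -0.19. Slc25a15, the ornithine carrier, had almost the same signal in 3 lines, 3170.2 in DU6, 3186.2 in DU6i and 3176.9 in DUKs, with 3893 in DBA.

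Slc25a1, the citrate carrier, had signals of 14924 in DU6, 45330.5 in DU6i, 28078.8 in DUKs and 24869.7 in DBA. DU6 was lowest and DU6i highest, 3.04-fold apart, or 1.81-fold after quantile normalisation. Against the trend of its class, Slc25a1 in DU6 was 1.88-fold under DUKs; it was 1.82-fold higher in DU6i than in DBA, or 1.14-fold after quantile normalisation. Fatty acid carrier Slc27a1, on chip B, had 3184.6, 7032.1, 4687.6 and 3639.7 in DU6, DU6i, DUKs and DBA, a gap of 2.21-fold between DU6 and DU6i. The chip A probe set of Slc27a1 had 3559, 6568.1, 7726.3 and 5584.6, which put DU6 2.17-fold under DUKs. Both put DU6 lowest. Slc16a1, a carrier of lactate, pyruvate and other monocarboxylates, had 1750.8, 6586.9, 4486 and 1606.6, at least 2.92-fold higher in DU6i than in DU6 or DBA; its second probe set was under the floor in every line.

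Several adipocyte genes had a like order. Adipoq, the hormone adiponectin, had signals of 21044.1 in DU6, 48250.9 in DU6i, 36670.3 in DUKs and 28894.2 in DBA. Lipe, the hormone-sensitive lipase, had 14762.8, 46225.5, 30054.4 and 23529.9. Of the 8 adipocyte genes on the chips, 5 were in the order DU6i, DUKs, DBA, DU6 from high to low, whereas Cidec, on chip B, had 58259.1 in DU6 and 37381.8 in DU6i. Lep had 12445.7, 27777.4, 8696.5 and 3837.4 in DU6, DU6i, DUKs and DBA, and Pparg 3935, 6563.8, 4914.5 and 3489.3. In both, DU6 lay above DBA. All 8 were above the floor in every line. Over the 8, the summed signal was 152382, 284992, 225326 and 155242 in DU6, DU6i, DUKs and DBA, and the median log2 ratio of DU6 over DU6i was -1.19, or -0.80 after quantile normalisation. That exact order of lines was found in 4 of the 45 members above the floor in all 4 lines (8.89%), Slc1a5, Slc25a1, a Slc25a5 probe set and Slc27a1, and in 6.17% of 3974 such probe sets. The 5 adipocyte genes in that order were all on chip A. The 99th percentile of chip A ran in that order too, with 18810, 34793, 27552 and 23450 in DU6, DU6i, DUKs and DBA. So did a control for RNA length, the middle of the pyruvate carboxylase transcript relative to its 3′ end on chip A (15.3%, 54.5%, 53.9% and 19.5%). The parts of adipocyte RNA, of the range of the array and of RNA length in these differences were not tested.

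**Figure D3:**
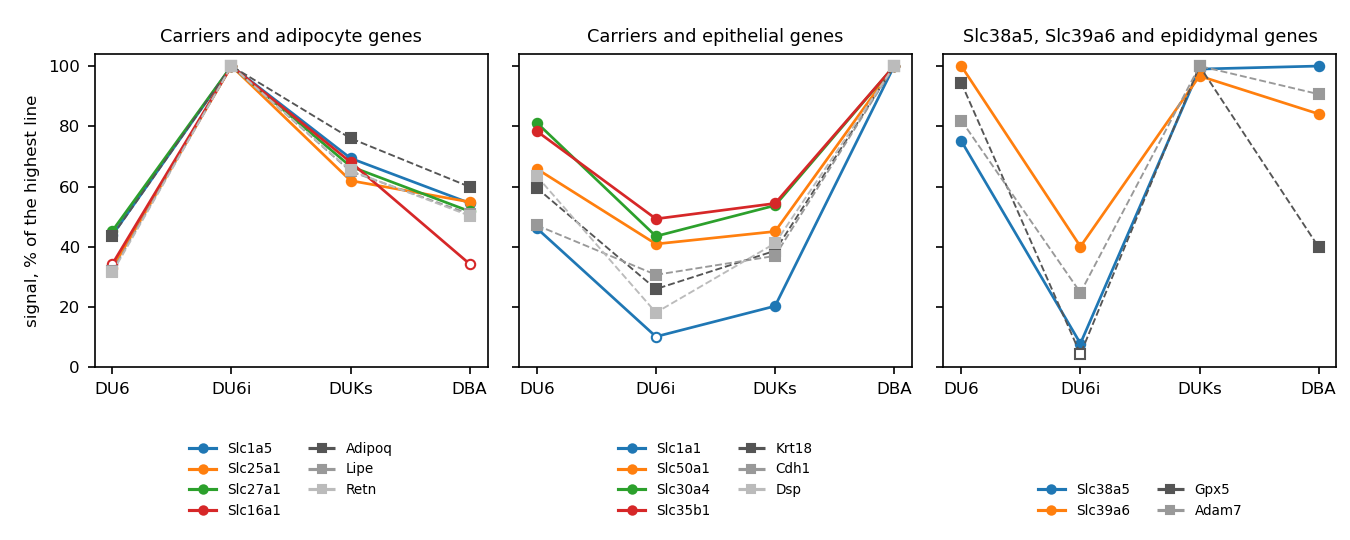
Signal of each probe set as a percent of its highest line (signals at or under the floor drawn at the floor, open), for carriers (solid) and genes of adipocytes, epithelium and epididymis (dashed); the genes were chosen after their values were seen. Slc1a5 and Slc25a1 in DU6 were at 43.9% and 32.9% of their DU6i signals beside 43.6% for Adipoq; Slc1a1 in DU6i was under the floor, where Dsp was at 18.1% of DBA; Slc38a5 in DU6i was at 7.87% of DBA.

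Among the other carriers, those of metal ions gave 7 of the 16 calls in the main pairs. In DU6i against DBA, 10 of 13 measured probe sets for zinc, copper and magnesium carriers were lower and 3 higher, 4 of them lower at 2-fold or more and none higher (background 6.68% lower and 4.79% higher), with a median log2 ratio of -0.56. Both Slc39a4 probe sets and Slc41a1 among them were under the floor in DU6i and could only be lower. Slc30a1 and a Slc30a5 probe set were under it in DBA and could only be higher. After quantile normalisation 10 were still lower, 3 at 2-fold or more, with a median of -0.38. DUKs against DBA gave a median of -0.59 with 4 of 14 lower at 2-fold or more (background 5.29%). There Slc39a4 again entered through DBA alone, and Slc30a1, a Slc30a5 and a Slc39a6 probe set through DUKs alone. In DU6 against DUKs the median of 12 was 0.15. DU6 against DBA was more even, with 5 of 11 higher and 6 lower and a median of -0.30. In that pair 3 were lower at 2-fold or more (background 4.17%), and Slc30a3 and both Slc39a4 probe sets entered through DBA. DBA thus had the higher signals against DU6i and DUKs, and less clearly against DU6.

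Slc39a4, the zinc importer of the gut epithelium, was above the floor in DBA alone on both of its probe sets. The brighter had 805.4 in DU6, 23.5 in DU6i, 624.8 in DUKs and 2335.6 in DBA, at least 2.28-fold above each. Slc41a1, a magnesium carrier, had 1174.4, 988, 1462 and 3009.6, and DBA lay at least 2.94-fold above DU6i and 2.06-fold above DUKs. Slc30a4, which moves zinc into vesicles, had 2463, 1319.7, 1629.7 and 3034.6, and DU6i was 2.30-fold under DBA.

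Slc39a9, another zinc carrier, was lowest in DUKs, with 2508.6 in DU6, 2589.3 in DU6i, 1244.1 in DUKs and 3727 in DBA. It was the 1 member 2-fold or more under each of the other lines in DUKs (0.296% of all measured probe sets), with a log2 ratio of DUKs to DBA of -1.58. Slc31a1, the copper importer, had 3685.9, 2570.2, 1663.6 and 3432.8 on one probe set, which made DU6 2.22-fold higher than DUKs. The other Slc31a1 probe set had 4826.1, 3702.5, 3794 and 4817.4, a ratio of 1.27-fold in the same pair. Slc30a3, a zinc carrier of vesicles, ran the other way: its signals were 931.1 in DU6, 1487.4 in DU6i, 4047.2 in DUKs and 2191.6 in DBA. DU6 was at least 3.96-fold lower than DUKs, the largest ratio among the members in that pair, and both DU6 lines lay under both control lines.

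Further members were high in DBA and low in DU6i. Slc44a4, of the choline transporter-like family, had 1634.9 in DU6, -26.9 in DU6i, 790.2 in DUKs and 3180.9 in DBA, a ratio of at least 3.11-fold in DU6i against DBA. Slc9a3r1, a scaffold that anchors ion exchangers under the apical membrane of epithelia, had 1321, 664.8, 1737.5 and 3972.8, with DBA at least 3.88-fold above DU6i. The sugar carrier Slc50a1 had 6579.6, 4087.9, 4502.9 and 9990.8, 2.44-fold lower.

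Slc35b1, a nucleotide carrier of the endoplasmic reticulum, had 7336.2, 4611.2, 5091.8 and 9361.7, 2.03-fold lower in DU6i, or 1.98-fold after quantile normalisation. Slc27a2, a fatty acid carrier with acyl-CoA synthetase activity, had 952.1, 1232.9, 1975.7 and 3094.3, and DU6i was 2.51-fold under DBA; its second probe set was above the floor in DBA alone. Members 2-fold or more above each of the other 3 lines in DBA were Slc1a1, Slc9a3r1, Slc41a1 and Slc39a4, 4 of 81, against 1.3% of all measured probe sets; Slc39a4 was measured through DBA alone. Of the 45 members above the floor in all 4 lines, DBA was highest in 14 (31.1%) and DUKs in 4 (8.89%), against 25.1% and 20.6% of 3974 such probe sets. No member lay 2-fold or more above or under every other line in DU6 (background 0.51% and 0.51%), above every other line in DUKs (2.07%) or under every other line in DBA (0.346%).

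Epithelial genes had the same kind of order. Krt8, an epithelial keratin, had signals of 12163.3 in DU6, 5714.3 in DU6i, 6152.3 in DUKs and 16360 in DBA. Dsp, a protein of desmosomes, had 3826.4, 1094.2, 2482.3 and 6033.3. Of the 9 epithelial and mesothelial genes on the chips, 5 were in the order DBA, DU6, DUKs, DU6i from high to low, and in 6 DU6i lay 2-fold or more under DBA. The mesothelial genes Msln and Upk3b had other orders. Msln had 1519.6, 1536.3, 662.4 and 720.5, with both control lines under the floor, and Upk3b was highest in DUKs (5253.1). The summed signal of the 9 was 41152.8, 24175.7, 30007.4 and 64432.5 in DU6, DU6i, DUKs and DBA. Of the 45 members above the floor in all 4 lines, 5 had that exact order (11.1%), Slc29a1, Slc30a4, Slc35b1, Slc50a1 and Slc66a2, against 7.45% of 3974 such probe sets. DBA and DU6 were also the pools with low values of the pyruvate carboxylase control for RNA length on chip A. These were 19.5% and 15.3%, against 53.9% in DUKs and 54.5% in DU6i. The parts of epithelial RNA and of RNA length in these differences were not tested. Genes of the seminal vesicle and accessory glands, 6 on the chips, summed to 108249 in DBA and 27034.1 in DUKs, with none above the floor in DU6 or DU6i. Germ cell genes, 9 on the chips, summed to 55629.7 in DU6, 40489.5 in DU6i, 220474 in DUKs and 101205 in DBA, so that both control lines were higher. Macrophage genes, 8 on the chips, summed to 94102.8, 79096.1, 55728.4 and 47202.7, with both DU6 lines higher, the split of lines that Slc6a13 had. The sum was higher in DU6 than in DU6i, unlike Slc6a13. Cd14 and Ctss did not have the split. In DU6i Cd14 had 9040.1 against 9439.1 in DUKs, and Ctss 7211.4 against 9195.9. Endothelial genes, 7 on the chips, summed to 43649.3, 50354.2, 36654.6 and 38432.8 in DU6, DU6i, DUKs and DBA, the order of lines that Slc6a13 had. Of the 6 measured, 4 were higher and 2 lower in DU6 than in DUKs, and 6 were higher in DU6i than in DBA. The parts of macrophage and of endothelial RNA in the Slc6a13 difference were not tested.

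The anion exchangers Slc4a3 and Slc4a1 were under the floor in DBA alone. Slc4a3 had 1390.6 in DU6, 2781.1 in DU6i, 2442.3 in DUKs and 971.7 in DBA, at least 2.72-fold higher in DU6i than in DBA. Slc4a1, the anion exchanger of red cells, had 1943.4, 2255.1, 2815.6 and 809.5, at least 2.20-fold higher in DU6i than in DBA. Erythroid genes differed among themselves. Klf1 had 862.3, 1327, 1686.2 and 669.8, under the floor in DU6 and DBA and higher in DUKs than in DU6i, as Slc4a1 was. Hba-a1 had 59306, 24004.7, 73731.8 and 21916.7, and Hbb-b2 38487.9, 26308, 48106.4 and 23071.8. Alas2 had 10549, 9294.1, 7093.5 and 9351.5, lowest in DUKs, where Slc4a1 was highest. The part of red cell RNA in the Slc4a1 difference was not tested. The potassium and chloride cotransporter Slc12a4 was likewise under the floor in DBA alone (759.7, against 1872.8 in DU6, 1752.2 in DU6i and 1507 in DUKs). The related exchanger Slc4a2 was highest in DBA (4074.4) and lowest in DUKs (2439.6).

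The phosphate carrier Slc20a1 was under the floor in DUKs alone, with 2057.8 in DU6, 2530.1 in DU6i, 927.5 in DUKs and 1749.2 in DBA. DU6 was at least 2.01-fold higher than DUKs, or 1.92-fold after quantile normalisation, and DU6i 1.45-fold higher than DBA. Vitamin carriers ran the same way in DU6 against DUKs, where all 3 measured were higher. Slc5a6, the sodium-coupled carrier of biotin and pantothenate, had 4511.6, 4702.9, 3532.5 and 3140.1, so that both DU6 lines lay above both control lines. Slc46a1, the proton-coupled folate carrier, had 2135.8, 1818.9, 1240.1 and 1417.6, with the same split. Slc19a1, the reduced folate carrier, was under the floor in DUKs (790.7) and at 1939.1, 1693.8 and 2550.2 in DU6, DU6i and DBA.

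**Figure D4:**
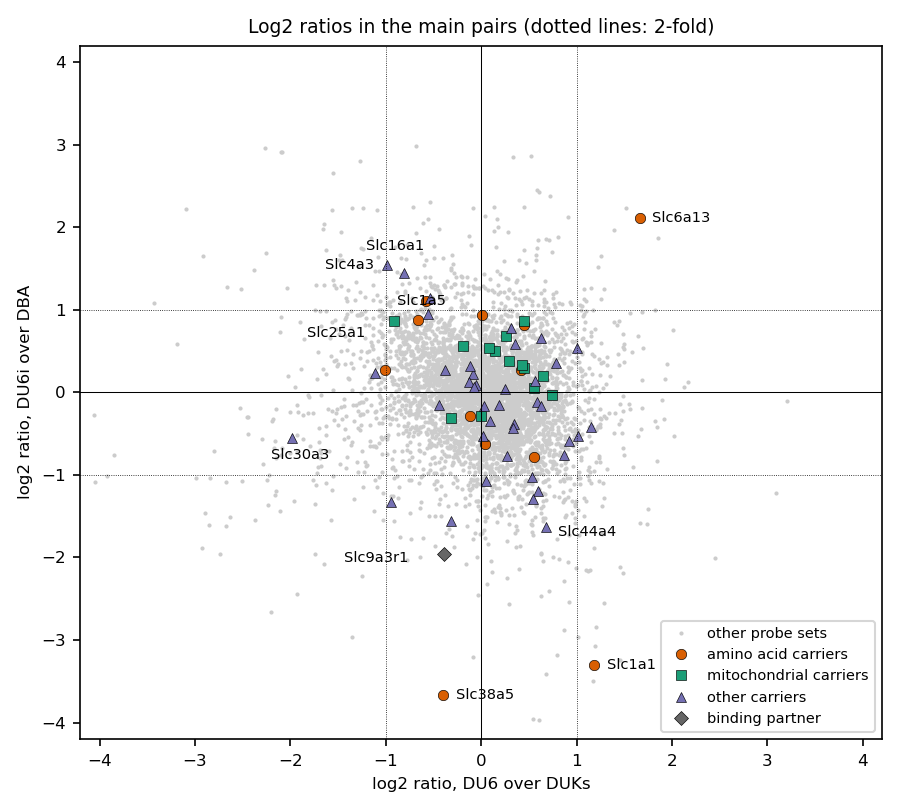
Log2 ratio of DU6 over DUKs (x axis) against that of DU6i over DBA (y axis) for the 67 members measured in both pairs, by class, over 5018 other probe sets (grey); dotted lines mark 2-fold. Slc6a13 is beyond 2-fold on both axes in the upper right, Slc1a1 in the lower right, and Slc38a5 lies at the bottom with a small ratio in DU6 over DUKs.

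The pairs within a side show how far lines of one side differ. In DU6 against DU6i, 3 of 70 members were higher and 5 lower (background 4.8% higher and 5.7% lower): Slc38a5, Slc1a1 and Slc39a6 higher, and Slc25a1, Slc16a1, Slc6a12, Slc1a5 and Slc27a1 lower. In DUKs against DBA, 3 of 76 were higher and 9 lower (background 6.01% and 5.29%). These 9 included Slc1a1, Slc44a4, Slc39a9, Slc50a1 and Slc19a1, and Slc5a11, a carrier of inositol, was 2.37-fold higher in DUKs. The pair of control lines thus held 12 calls, beside the 8 of DU6 against DUKs and the 17 of DU6i against DBA.

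The pools differed in a control for RNA length. On chip A, the middle of the pyruvate carboxylase transcript gave 15.3% of the signal of its 3′ end in DU6, 54.5% in DU6i, 53.9% in DUKs and 19.5% in DBA, so that each main pair sets a low against a high value. In the pairs with like values, chosen after the data were seen, DU6 against DBA gave 2 members higher and 6 lower of those measured (background 3.79% and 4.17%), and DU6i against DUKs 4 higher and 3 lower (background 3.39% and 6.76%). The part of RNA length in the ratios given here was not tested.

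The 1 comparison with a test was that of both DU6 lines with both control lines, by limma on log2 signals with 2 lines a side. With Benjamini-Hochberg adjustment over 5267 probe sets, no member of 68 passed an adjusted p of 0.05, and no probe set did (0%). At an unadjusted p under 0.05 there were 4 members of 68, and 252 of all probe sets (4.78%). For Slc6a13 the difference was 1.89 in log2 (SE 0.354, 95% confidence interval 1.03 to 2.75), with limma's adjusted p = 0.829 and an unadjusted p of 0.00166. The other 3 were lower in the DU6 lines: Slc30a3 by a log2 of -1.27, Slc9a3r1 by -1.18 and Slc27a2 by -1.14. With 2 lines a side, the smallest two-sided p of an exact permutation test is 0.333, and since DU6i was derived from DU6 the lines of that side are not independent.

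Both DU6 lines lay above both control lines in 17 of 68 members and below them in 7, where the background was 16.8% above and 13.3% below. By class, 6 of 14 mitochondrial carriers, 4 of 12 amino acid carriers and 7 of 41 other carriers had both DU6 lines on top. Beside Slc6a13, the widest such gaps were those of Slc8a1, the sodium and calcium exchanger, and Slc25a10. Slc8a1 had 1576.4 in DU6, 1609.4 in DU6i, 703.2 in DUKs and 830.6 in DBA, both control lines being under the floor.

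The members most like the 3 leading genes over the 4 lines were ranked by Pearson's r of log2 signals, a description with no p since 4 pools are few. Nearest to Slc38a5 were Slc39a6 (r = 0.97), Slc66a2 (0.91) and Slc25a47 (0.84). Nearest to Slc6a13 were Slc8a1 (0.96), a Slc25a4 probe set (0.95) and Slc25a17 (0.94). Nearest to Slc1a1 were the nucleoside carrier Slc29a1 (0.99), Slc30a4 (0.99) and Slc35b1 (0.99).

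Genes with several probe sets, each above the floor in both lines of a pair, gave a check on the ratios. In DU6i against DBA, 11 of 12 pairs of probe sets (8 genes) had the same sign, with a median absolute difference of 0.22 in log2 and a largest of 0.72, for Slc25a20. Between DU6 and DUKs 8 of 12 pairs (8 genes) had the same sign, with a median absolute difference of 0.50 and a largest of 1.02, for Slc6a6. Pairs of probe sets of 1 gene share probe sets where the gene has 3.

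**Figure D5:**
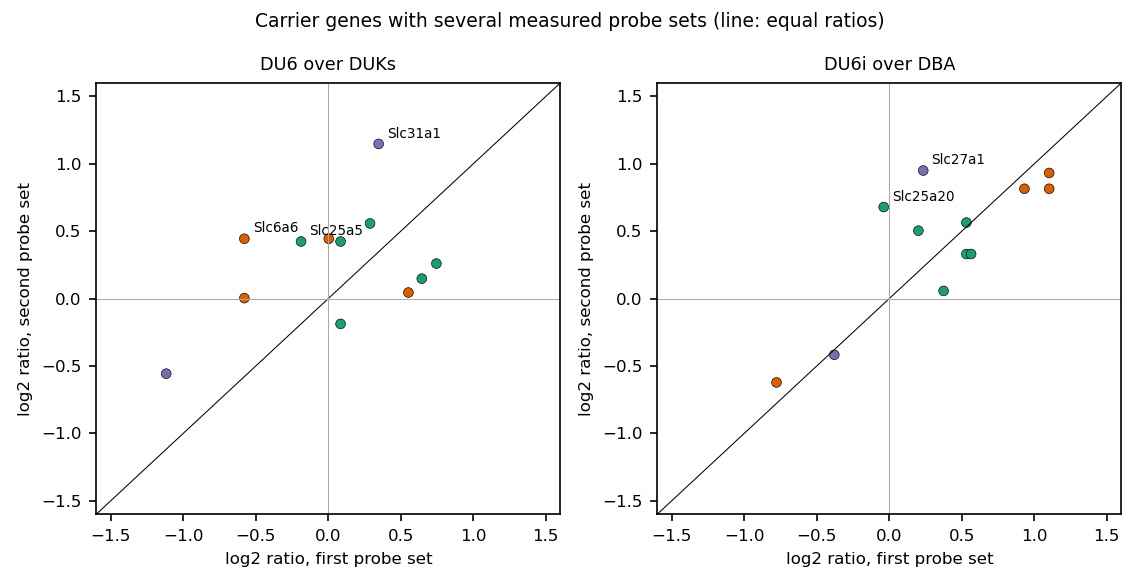
Log2 ratios of member genes with several probe sets, each above the floor in both lines, the first probe set on the x axis and the second on the y axis, for DU6 over DUKs (12 points) and DU6i over DBA (12 points); colours give the carrier class as in the plot of classes, and the diagonal marks equal ratios. In DU6i over DBA 11 of 12 points lie in a quadrant of equal sign, and in DU6 over DUKs 8 of 12.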

How the data were processed

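Per the labels, the authors used Data Mining Tool 1.2 together with Microarray Suite 4.0.1 and scaled every array on the whole of its probe sets. What they deposited is a linear intensity, negative for 12.8% to 30.5% of the probe sets of an array. Trimmed to its 2nd to 98th percentile, each array had a mean of 2500. Between 3045 and 3334 probe sets per chip A array and 1639 and 1823 per chip B array were above the floor; the number of arrays limits the precision. Chips were treated separately, and 110 AFFX control probe sets were left out.

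Names came from the platform annotation; 4 with several symbols were left out, and all 131 members matched the RefSeq table by gene number. Before log2, signals were raised to the floor where they lay under it. A pair of lines needed 1 array above the floor; limma (3.58.1, R 4.3.3; lmFit, eBayes) needed 2 of 4, with Benjamini-Hochberg adjustment over both chips, and was tested on simulated data. Its p-values measure the spread between lines.

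The text names the 3 leading genes, members at 2-fold in a main pair, the 5 widest gaps between sides in each direction, the 10 brightest, genes with several measured probe sets, those most like the leading genes, and those above the floor in 1 line; other named carriers were chosen after their values were seen. The members and lists were chosen with earlier results of these data known. Other floors, quantile normalisation, rescaling, log2(signal + floor), both arrays above the floor, 1 probe set per gene, breeding as a block and each line left out were tried. Figures used matplotlib 3.10.9.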

Additional observations from a re-analysis of the deposited data

Results flagged for a closer look

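Slc1a1 moved in opposite directions in the main pairs. Its log2 ratio was 1.19 in DU6 against DUKs and at most -3.30 in DU6i against DBA, where DU6i was under the floor, a difference of 4.49 in log2. The difference was not tested, since each line had 1 pool, and the second Slc1a1 probe set was above the floor in DBA alone. In both pairs Slc1a1 was higher in the pool with the lower signal from the middle of the pyruvate carboxylase transcript relative to its 3′ end on chip A (15.3% in DU6 and 19.5% in DBA, against 53.9% in DUKs and 54.5% in DU6i). Between DU6 and DBA, which had like values, the log2 ratio was -1.12. The part of RNA length in the Slc1a1 difference was not tested.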

How the results depend on the processing

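In 84 alternatives the class medians moved by a median of 0.03 in log2 and at most by 0.35 (other carriers in DUKs against DBA, from -0.21 to -0.57 with both arrays above the floor); 5 changed sign, all within pairs of one side. Of 225 alternatives for 45 member ratios at 2-fold, 0 reversed and 59 moved; 5 fell under 2-fold after quantile normalisation and 31 with the floor doubled. Counts of calls depended on the floor. In DU6 against DUKs the 5 higher became 8 with the floor halved, 1 with it doubled and 1 with log2(signal + floor), and the 3 lower became 6, 1 and 1. In DU6i against DBA the 6 higher became 2 with the floor doubled, 2 with log2(signal + floor) and 2 with both arrays above the floor, and the 11 lower became 4, 7 and 6. In DU6 against DU6i the 3 higher became 5 with the floor halved, and the 5 lower became 2 with it doubled and 3 with both arrays above the floor. In DUKs against DBA the 3 higher became 6 with the floor halved, 0 with it doubled, 5 after quantile normalisation, 1 with log2(signal + floor) and 1 with both arrays above the floor, and the 9 lower became 2 with the floor doubled and 5 with log2(signal + floor). limma called 0 members in every alternative, each line left out included (range 0 to 0; 1 to 7 members at an unadjusted p under 0.05). Without a filter on low signals it called 5 of 13069 probe sets, none a member, but more than 50% of the variances were then exactly 0 and eBayes was unreliable. No paired analysis was possible because each line has 1 pool and the labels carry no replicate numbers; breeding as a block, which sets DU6 with DUKs and DU6i with DBA by general knowledge of the lines, gave 0 members at the adjusted threshold and 3 at an unadjusted p under 0.05.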
